A study of Mus musculus with 3 samples.

Results

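Firre and Dxz4 are the large tandem repeat loci of the mouse X. The values below describe how much DNA came down with Xist in windows over them and within 500 kb of them. The windows, as they are read below, are wider than the loci, so no value is that of the repeat DNA alone. How reads from repeated sequence were counted is not known here. Members were the 25 kb rows of the deposited profiles that lie over the mm9 spans of the loci or within 500 kb of them and that carry a value. The spans, 47909001 to 47988000 for Firre and 72966001 to 73010000 for Dxz4, come with the definition of the members and were not checked against an mm9 gene annotation. There were 65 such rows of 3987 on the X and 94429 in all, 32 around Firre and 33 around Dxz4. Dxz4 is followed here through its transcript, which is named 4933407K13Rik.

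The cells were female mouse embryonic stem cells of strain 129SvJae, kept in 2i with LIF and then differentiated towards epiblast-like cells (EpiLCs). Xist was purified from crosslinked lysate with biotinylated antisense probes, and the genomic DNA bound with it was sequenced, in 1 library after 2 days and 1 library after 4 days of differentiation. A further library held input DNA from day 2 and gave no values of its own here. The labels name no genotype beyond the strain, no clone and no share of cells with an Xist cloud. The files hold no expression values, so the cell type could not be checked against markers. Since each day has 1 library, no error between replicates and no p-value can be given. Depth is unknown, as the files hold ratios and no read counts.

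Xist RNA spreads in cis over the X from which it is transcribed and brings in the proteins that silence it. Firre is a long noncoding RNA gene whose RNA carries many copies of a repeated domain that binds the nuclear matrix protein hnRNPU, and its locus can stay active on the silenced X. Dxz4 is a macrosatellite array. On the inactive X both loci bind CTCF, the protein that anchors chromatin loops, and they can contact each other over a long distance. Dxz4 is the hinge between the large chromatin blocks, called megadomains, into which the inactive X folds.

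The transcripts' starts are shown because the steepest change found at Firre lies near the end of the gene's span where transcription begins. The promoter sequences are those of RefSeq on GRCm38.p6, another build than that of the profiles, and both members had an entry. Each runs 5′ to 3′ on the minus strand, from 250 bases before the start of the transcript to 50 bases after it, with CpG dinucleotides in capitals. Firre lies at chrX:50635272-50635571 and 4933407K13Rik at chrX:75764650-75764949.
Firre: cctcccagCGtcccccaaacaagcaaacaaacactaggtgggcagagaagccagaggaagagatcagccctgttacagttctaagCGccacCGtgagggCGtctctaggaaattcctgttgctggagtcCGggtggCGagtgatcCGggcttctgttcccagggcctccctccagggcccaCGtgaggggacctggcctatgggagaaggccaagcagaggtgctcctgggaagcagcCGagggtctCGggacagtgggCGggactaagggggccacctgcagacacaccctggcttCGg
4933407K13Rik: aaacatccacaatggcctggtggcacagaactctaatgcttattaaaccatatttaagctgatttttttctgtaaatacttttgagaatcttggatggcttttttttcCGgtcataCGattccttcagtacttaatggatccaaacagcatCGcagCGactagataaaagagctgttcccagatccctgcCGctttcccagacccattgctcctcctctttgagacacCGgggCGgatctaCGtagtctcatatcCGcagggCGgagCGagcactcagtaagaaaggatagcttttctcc
The Firre stretch held 12 CpGs and was 62.7% G and C, and that of 4933407K13Rik held 11 CpGs and was 45.3% G and C. Over 32851 promoters of this length the medians were 7 CpGs and 52.7%. In the GRCm38 gene order the nearest protein-coding genes are Olfr1324, an olfactory receptor gene, and Stk26, a kinase gene, around Firre. Around Dxz4 they are Rab39b, which encodes a small GTPase, and Pls3, which encodes an actin-bundling protein. No gene was assigned to a window of the profiles, because the builds differ.

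Values are the authors' enrichment ratios, taken to be pulldown over input. A row is taken to mark the middle of a 100 kb window that moves by 25 kb. This is inferred from the naming of the profiles and the position of the first rows, and the placing of values within the windows below rests on it. Neighbouring rows then share 75 kb of sequence and are not independent. A flag of 1 marks rows whose ratio was set to 0, and these were left out. At Firre the flag was set in 0 of 5 rows over the span, 13 of 20 to its left and 0 of 20 to its right. At Dxz4 it was set in 1 of 2 rows over the span, 4 of 20 to the left and 4 of 20 to the right. The flagged row of the Dxz4 span is 72962501 to 72987500, the last of 5 flagged rows in a run that begins at 72862501. Only the row at 72987501 to 73012500 was therefore taken for Dxz4. Its window, 72950001 to 73050000, also holds DNA on both sides of the span. The windows of the first rows counted as right flank hold part of Dxz4, so the row and this flank are not cleanly separated. Over the X, 40.2% of rows were flagged, and the medians of the rest were 10.87 on day 2 and 16.58 on day 4. Autosomal medians were 0.38 and 0.29.

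The first question was how much Xist lay on the loci. The median of the rows over the Firre span was among the higher X values on day 2 and near the middle on day 4. On day 2 its 5 rows read, from left to right, 10.22, 10.91, 22.54, 28.68 and 29.59. On day 4 the same rows read 15, 14.77, 18.24, 22.55 and 24.54. The left rows of the gene were low on both days and the right rows high, and the contrast was wider on day 2. The median over the span was 22.54 on day 2, at percentile 88.4 of X rows, and 18.24 on day 4, at percentile 56.3. That median is the value of the middle row, where the day 2 values step up. The windows of this row and of those to its right also hold DNA beyond the gene's right end. Set against the autosomal median of its own library, the span median was 59.3 times as high on day 2 and 62.9 times on day 4.

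Dxz4 was lower than the Firre median on both days. Its row with a value had 17.63 on day 2, at percentile 74.9 of X rows, and 15.09 on day 4, at percentile 44.3. Relative to the autosomal medians these are 46.4 and 52.0. The range of the Firre rows contained the Dxz4 value on both days, so the loci are not separated beyond the spread within Firre. Over all rows with a value whose window overlaps the Dxz4 span, the median was 19.21 on day 2 and 15.43 on day 4.

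**Figure D1:**
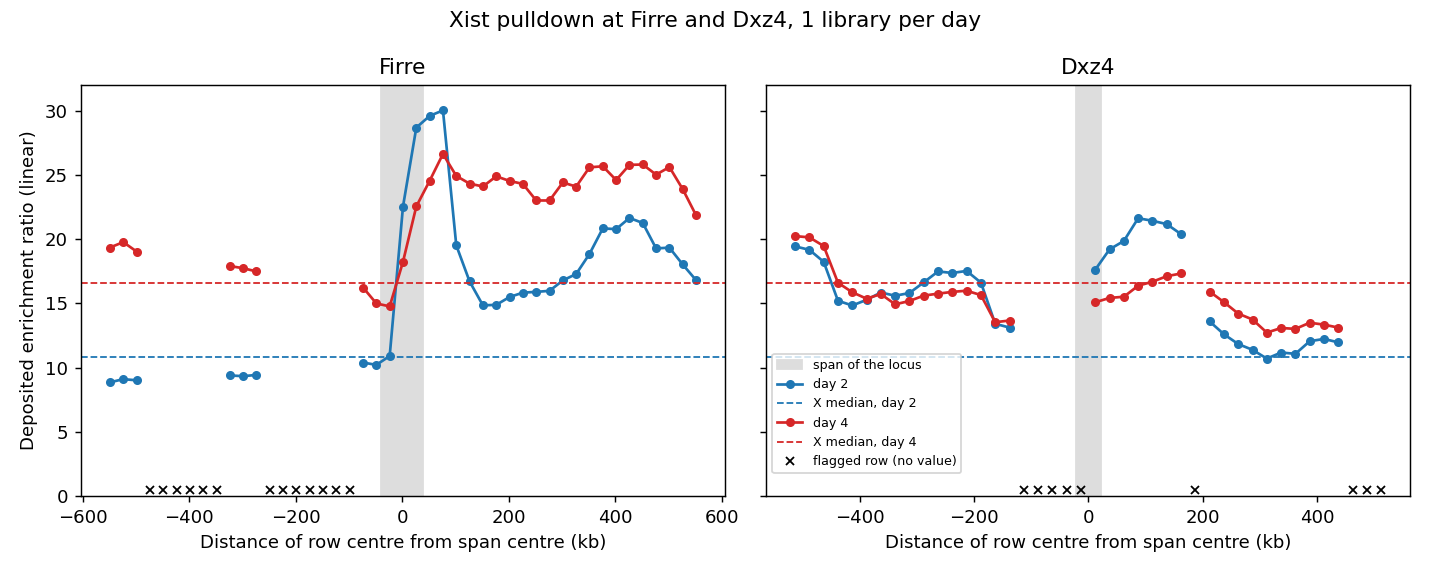
Deposited enrichment ratio (linear axis) of each 25 kb row against the distance of its centre from the centre of the locus in kb, for Firre (left) and Dxz4 (right). Blue points are the day 2 library and red points the day 4 library, dashed lines are the X medians of 10.87 and 16.58, grey marks the span and crosses the flagged rows. At Firre the day 2 line goes from 10.91 to 22.54 between touching rows, reaches 30.02 and drops to 19.52.

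The second question was how the loci stood against the DNA next to them. At Firre the day 2 profile had a narrow summit at the right end of the gene. It was made of 4 rows, 47937501 to 48037500, with 22.54, 28.68, 29.59 and 30.02, of which the last lies just outside the span. The row before them had 10.91 and the row after them 19.52. The mean of the 4 rows was 27.7, which is 2.54 times the row before and 1.42 times the row after. Values rose by 11.63 into the summit and fell by 10.5 out of it.

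As the windows are read here, all 4 of the summit cover the 25 kb from 47975001 to 48000000, which the windows of the rows before and after lack. Of that stretch, 13 kb lie inside the Firre span, at the end where the gene begins by its GRCm38 orientation, and 12 kb lie beyond it. The first rows over the span were near the X median, with 10.22 and 10.91 against 10.87. Their windows begin at 47850001 and 47875001, left of the gene, so they mix DNA of the gene and of the left flank. The level of the rest of the Firre span alone was not seen. Windows of this width do not show whether the high day 2 values belong to the part inside the gene or to the part beyond it.

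On day 4 no such summit stood out. The same 4 rows had 18.24, 22.55, 24.54 and 26.63, between 14.77 before and 24.92 after. Their mean was 23.0, or 0.923 times the row after. Values climbed into the gene's right end and then remained high, at 21.86 to 26.63 in all 20 rows of the right flank. The day 4 profile was a step where the day 2 profile was a peak.

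The steepness of these changes was set against all pairs of touching X rows with values, a measure chosen after the profile had been seen. The log2 change into the summit on day 2 was 1.05, a factor of 2.07. Of 3650 pairs on the X, 1 had a change that large in either direction, which is this pair itself. The rise into the X row that begins at 100612501 was nearly as large on day 2, a factor of 2.06. The change out of the Firre summit was -0.62, and 6 of 3650 pairs, itself included, were as large. The median size of a change was 0.063 on day 2. On day 4 the changes at the same rows were 0.30 and -0.10, with 26 and 906 of 3650 pairs as large.

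**Figure D2:**
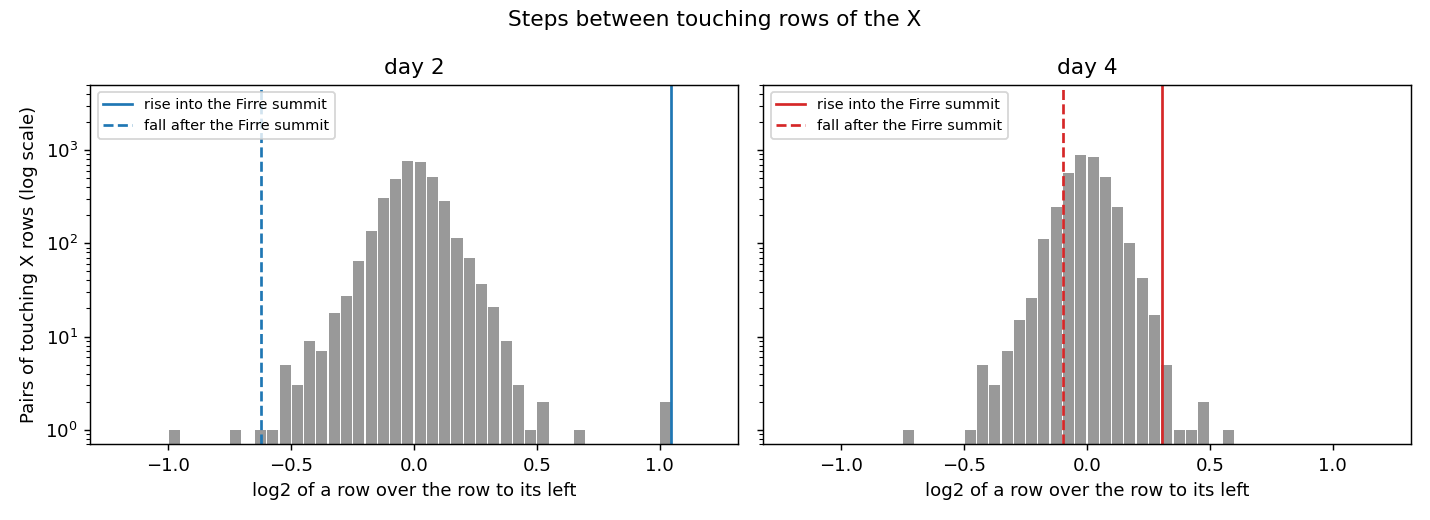
Number of pairs of touching X rows (log axis) by the log2 ratio of a row over the row to its left, for the day 2 library (left) and the day 4 library (right). The solid line is the change into the 4-row summit at Firre, 1.05 on day 2 and 0.30 on day 4, and the dashed line the change after it, -0.62 and -0.10. On day 2 the solid line lies at the far right end of the distribution.

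Over 4 successive rows, the lowest value at the Firre summit was 1.15 times the higher of its neighbours on day 2, which ranked 8 among 2898 positions of the X. The lowest of 4 rows exceeded both neighbours at 6.87% of these positions on day 2 and at 7.07% on day 4. On day 4 the Firre rows had 0.732 by the same measure and ranked 2639. The X position that ranked 1 on both days was at 100612501 to 100712500, with 1.88 on day 2 and 1.28 on day 4. In absolute level the Firre summit was far below it, with a highest row of 30.02 against 82.67. No gene was assigned to that place. Whether it holds the gene of Xist, the RNA that the probes captured, was not checked, so it may not be an ordinary comparison. Around Dxz4 the highest value of the measure was 1.05 on day 2 and 1.03 on day 4, at ranks 66 and 90. Both places lie across the left edge of the flank, away from the locus. The measure needs 6 successive rows with values, and the Dxz4 row directly follows flagged rows. That row could not be among 4 scored rows, so a summit at Dxz4 could not be seen this way.

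The 5 rows of the Firre span differed by a factor of 2.90 from lowest to highest on day 2 and of 1.66 on day 4. The median of this factor over stretches of 5 rows on the X was 1.18 and 1.14. Of 3044 such stretches, 3 had a factor at least as high on day 2, the Firre span included, and 58 on day 4. The factor was not planned beforehand, and it includes the change into the summit described above. It is therefore not a separate observation.

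The flanks of Firre were unequal. To the left, the 7 rows with a value ran from 8.86 to 10.4 on day 2, with a median of 9.34, and from 16.24 to 19.77 on day 4, with a median of 17.91. To the right, the 20 rows ran from 14.85 to 30.02 on day 2, with a median of 17.66, and from 21.86 to 26.63 on day 4, with a median of 24.57. The ranges of the sides did not overlap on either day, but how often this occurs elsewhere on the X was not counted. To the left 13 of 20 rows were flagged, and the rows with a value share sequence in part. The row next to the gene on each side has a window that holds part of the span. The right flank was 1.89 times the left on day 2 (log2 0.92) and 1.37 times on day 4 (log2 0.46). A log2 difference at least this far from 0 was present at 22.7% and 33.1% of the 4213 X positions that allowed the same comparison, so a difference of this size between the sides was common along the X.

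The right flank had a broad second maximum on day 2. From a low of 14.85 at 48087501 to 48112500, values went up to 21.65 at 48362501 to 48387500 and were down to 16.81 at the edge of the flank. On day 4 the same rows had 24.10, 25.78 and 21.86, a flatter course.

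Relative to both flanks together, the Firre span was higher on day 2 and lower on day 4. The flanks together held 7 rows from the left and 20 from the right, so their median was close to that of the right flank. The median over the span was 1.35 times that of the flanks on day 2 (22.54 and 16.71, log2 0.43) and 0.751 times on day 4 (18.24 and 24.30, log2 -0.41). Among 4213 X positions with a span and flanks of the same width, these stood at percentiles 92.3 and 6.85. Those positions needed at least 5 rows with values per flank and were not matched for the imbalance of the sides. The log2 difference went down by 0.85 between the days, and 17 of the 4213 positions, which is 0.404%, went down as far. Neighbouring positions share most of their rows, so these shares describe the 2 libraries and are not a test. The sign on day 4 comes from the right flank: against the left flank alone the span had a log2 ratio of 0.03, and against the right flank -0.43.

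Around Dxz4 the profile was flatter. The 16 rows with a value to the left ran from 13.12 to 19.44 on day 2, with a median of 16.24, and from 13.54 to 20.24 on day 4, with a median of 15.75. To the right the 16 rows ran from 10.71 to 21.63 on day 2, with a median of 12.42, and from 12.73 to 17.33 on day 4, with a median of 14.66. The sides overlapped on both days. The right flank was 0.765 times the left on day 2 and 0.931 times on day 4, log2 ratios of -0.39 and -0.10. Differences at least this far from 0 were present at 55.7% and 79.9% of 3904 X positions. With flanks of 200 kb the direction turned, to 0.44 on day 2 and 0.16 on day 4.

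Next to Dxz4 on the right, within the 200 kb, lay a raised stretch whose leftmost row with a value is the Dxz4 row. The 7 rows from 72987501 to 73162500 had 17.63, 19.21, 19.86, 21.63, 21.43, 21.17 and 20.39 on day 2. The nearest values outside were 13.12 to the left, beyond 5 flagged rows, and 13.60 to the right, beyond 1 flagged row, and all 7 rows exceeded both. On day 4 the 7 rows had 15.09, 15.43, 15.52, 16.38, 16.69, 17.12 and 17.33, between 13.67 and 15.92, and 4 of them exceeded both. The median of the stretch was 1.53 times the mean of the values at its edges on day 2 and 1.11 times on day 4. Both edges of the stretch fall on flagged rows, so where it begins and ends was not seen.

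The Dxz4 row itself was 1.12 times the flanks on day 2 (17.63 and 15.71, log2 0.17) and 0.969 times on day 4 (15.09 and 15.57, log2 -0.04). These stood at percentiles 77.2 and 41.6 of X positions, just above the upper quartile of 0.15 on day 2 and between the quartiles of -0.14 and 0.11 on day 4. With flanks of 200 kb the day 2 value was -0.12, so Dxz4 had no settled direction against its surroundings.

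The third question was how recovery differed between the days. Ratios were scaled to the autosomal medians of the libraries. That median fell by 0.39 on the log2 scale from day 2 to day 4, while the X median was higher by 0.61. In a bulk library, fewer cells with Xist on the X and less Xist per cell cannot be told apart. On this scale the median log2 of day 4 over day 2 over all X rows was 0.88, with quartiles of 0.51 and 1.24.

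Firre divided into parts that differed little and parts that differed much. The span rows had log2 values of 0.94, 0.83, 0.08, 0.04 and 0.12 from left to right, a median of 0.12, at percentile 4.28 of X rows. In the deposited ratios 3 of these 5 rows were lower on day 4, by factors down to 0.786, so the sign of the span's median depends on the scaling: it was -0.27 without scaling and -0.88 relative to the X median. The 3 rows are those of the summit over the gene. The left flank had a median of 1.32 (1.03 to 1.52), at percentile 79.3, and deposited ratios 1.56 to 2.18 times as high on day 4. Relative to the X median the left flank had 0.32. The right flank had a median of 0.81, at percentile 44.9, between 0.22 next to the gene and 1.13 at 48112501 to 48137500. That median turns to -0.19 relative to the X median.

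A rise of more than 2-fold on the autosomal scale was present in 41.3% of X rows, and in 11 of 32 rows around Firre, 34.4%. All 7 rows of the left flank were among the 11, with 4 of 20 rows of the right flank and 0 of 5 over the span. A lower deposited ratio on day 4 was present in 17.1% of X rows and in 4 of 32 rows around Firre, 12.5%, a share near that of the X. The 4 rows are the 4 of the summit and touch each other.

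Around Dxz4 the days differed less. The Dxz4 row had a log2 of 0.17, at percentile 5.48 of X rows, and a deposited ratio 0.856 times as high on day 4. Without scaling its log2 was -0.22, and relative to the X median -0.83. The left flank had a median log2 of 0.39 (0.24 to 0.52), at percentile 17.1, and the right flank 0.54 (-0.01 to 0.66), at percentile 26.8. Relative to the X median these turn to -0.61 and -0.46, and without scaling the left flank had a median of -0.0012, with 8 of 16 rows lower on day 4 and 8 higher.

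Of the 33 rows around Dxz4, 0 rose more than 2-fold on the autosomal scale, against 41.3% of X rows, and 15 had a lower deposited ratio on day 4, 45.5% against 17.1%. The lowest log2 values were those of the raised stretch, between -0.01 and 0.17 in its 7 rows. The row at 73062501 to 73087500 was the only one of the 65 that was lower on day 4 on the autosomal scale, as were 2.08% of X rows, with 21.63 on day 2 and 16.38 on day 4. On both sides beyond the flagged rows the log2 was higher, 0.45 at 72837501 to 72862500 and 0.62 at 73187501 to 73212500. Low values also lay farther out. From 2 to 1 Mb left of Dxz4 the median log2 was 0.33, against 0.88 over all X rows. From 4 to 3 Mb left of it the median was 1.48.

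**Figure D3:**
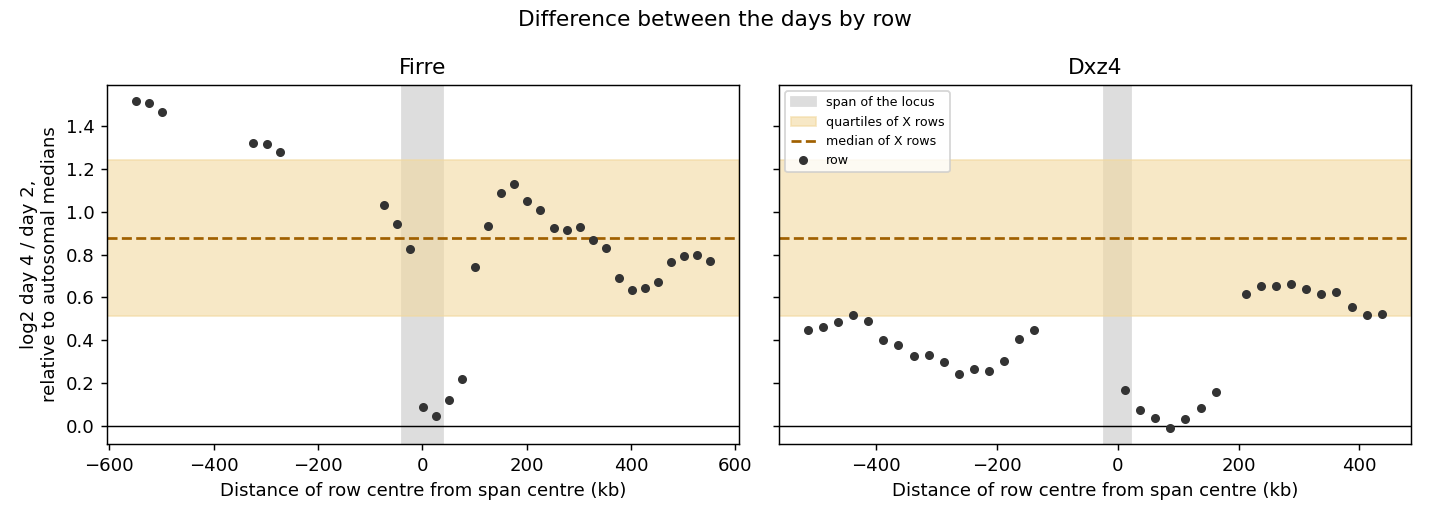
log2 of day 4 over day 2 for each row, relative to the autosomal medians, against distance from the centre of the locus in kb, for Firre (left) and Dxz4 (right). Points are rows, the dashed line is the median of X rows, 0.88, the band their quartiles, 0.51 and 1.24, and grey marks the span. The rows of the Firre summit and the 7 rows from Dxz4 rightward lie near 0.

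The rows with the smallest differences at both loci were those that stood highest above their neighbours on day 2. The summit at Firre and the raised stretch at Dxz4 were both found by their high day 2 values, and day 2 is the denominator of the ratio, so a low ratio of day 4 to day 2 is favoured at both. Which of these values would recur in another library was not seen, since each day has 1.

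The surroundings were followed to 5 Mb on each side in bins of 1 Mb. Over the 5 Mb together the median was lower to the right of Dxz4 than to its left on both days. Single bins did not all follow this: on day 2 the left bin with 10.82 was below the right bins with 11.27 and 11.32. From left to right the day 2 medians around Dxz4 were 18.08, 10.82, 21.87, 26.10 and 17.49 before the locus. They were 11.27, 11.32, 5.71, 2.25 and 2.90 after it. On day 4 they were 28.73, 23.17, 24.58, 24.95 and 16.61 before it and 13.43, 13.66, 6.66, 3.01 and 3.40 after it. The bins after 2 Mb on the right hold 13, 5 and 6 rows. Over the whole 5 Mb the left side had a median of 18.19 on day 2 (160 rows) and the right side 9.45 (85 rows). On day 4 these were 24.57 and 13.01. The median log2 of day 4 over day 2 on the autosomal scale was 1.15, 1.48, 0.53, 0.33 and 0.39 before Dxz4. After it the values were 0.65, 0.78, 0.49, 0.81 and 0.60. All bins from 3 Mb before Dxz4 to 5 Mb after it were below the X median of 0.88. The small difference between the days was therefore not confined to Dxz4 and its flanks.

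Across the whole X the sides of Dxz4, which correspond to the megadomains, were closer. Left of it the median was 12.28 on day 2 and 17.82 on day 4 (1466 rows), and right of it 10.22 and 15.71 (2520 rows). The quartiles, 5.96 and 18.09 on the left and 4.84 and 17.33 on the right on day 2, overlapped widely.

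Around Firre the bins had no common slope. The day 2 medians were 4.69, 7.73, 20.58, 14.53 and 9.86 before the gene and 17.19, 17.17, 22.47 and 16.38 after it, with 0 rows with a value in the last bin. The outermost bin on the left and that from 3 to 4 Mb on the right hold 5 and 6 rows. On day 4 they were 8.25, 17.73, 21.92, 23.08 and 19.05, then 24.54, 23.77, 22.53 and 21.34. Firre lay in a stretch of high recovery on day 4, with medians of 19.05 to 24.54 from 3 Mb before the gene to 4 Mb after it. The days differed least in the bins that were highest on day 2. The median log2 was 0.55 in the bin from 3 to 2 Mb before the gene and 0.45 in the bin from 2 to 3 Mb after it.

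**Figure D4:**
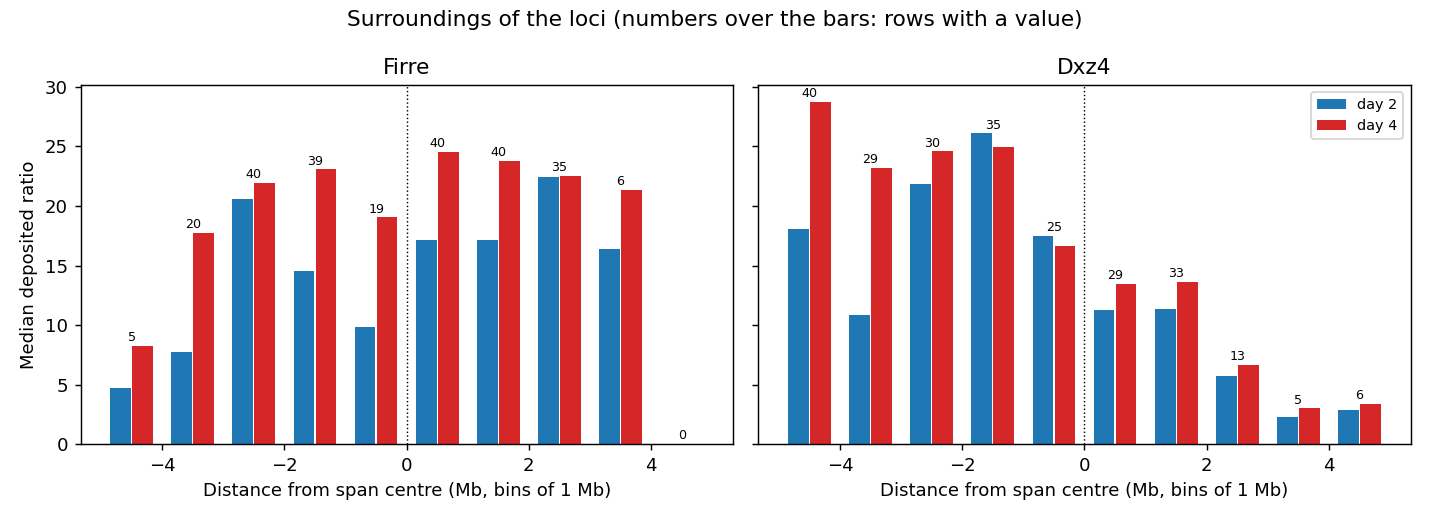
Median deposited enrichment ratio (linear axis from 0) in bins of 1 Mb up to 5 Mb to each side of the centre of Firre (left) and Dxz4 (right), with day 2 in blue and day 4 in red. Numbers over the bars are the rows with a value. To the right of Dxz4 the bars fall to 2.25 on day 2 and 3.01 on day 4 in the bin from 3 to 4 Mb, which holds 5 rows.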

How the data were processed

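Xist-bound DNA was measured in 1 library per day. The authors deposited 1 enrichment ratio per 25 kb row and library, to 2 decimals. Per the submitters' processing notes the build was mm9, reads were handled with Trim Galore 0.4.1 and Bowtie2 2.2.9, and other tools were SAMtools 1.2, Picard and bedtools. Scaling, the rule behind the flag and the input behind each day's ratio are not known here, and an input used for both days would add the same noise to both. The mean ratio over rows with values was 0.968 and 1.01, so a gain on the X goes with a loss elsewhere.

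Flagged rows were left out. A row belonged to a span when it overlapped it, and to a flank when it lay within 500 kb. Medians, log2 ratios with no pseudocount and percentiles were computed in Python 3.11.15 (numpy 2.4.6, pandas 2.3.3). X positions served as background where each flank had at least 5 rows with values. The calculation was checked on 100 simulated profiles with a flat level, small independent noise and steps at the segment edges. Known steps of right over left flank and of span over left flank came back with a largest log2 error of 0.089. Real rows share sequence and vary by region, so this is not the error of the values reported here. The span over both flanks, the days and the summits were not simulated. The members and lists were chosen with earlier results of these data known. The rows named are the highest and lowest per locus and day, and others picked after their values were seen. Alternatives changed flank width, row assignment, summary, scaling and flagged rows.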

Additional observations from a re-analysis of the deposited data

Results flagged for a closer look

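The log2 ratio of the Firre span to both flanks had opposite signs on the days, 0.43 on day 2 and -0.41 on day 4. The same held for the span against its right flank, with 0.35 on day 2 and -0.43 on day 4. At Dxz4 the row with a value against both flanks had 0.17 on day 2 and -0.04 on day 4, and against the left flank 0.12 and -0.06. Each sign rests on 1 library, and the difference between the days was not tested. Over the X the quartiles of the ratio to both flanks were -0.21 and 0.15 on day 2 and -0.14 and 0.11 on day 4, so the Dxz4 row lay just above the upper quartile on day 2 and between the quartiles on day 4.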

How the results depend on the processing

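Alternatives gave 96 values for 22 results. In 79 of them the value moved by at most 1.5 times, or 10 points for percentiles. For log2 ratios the sign was kept and the fold behind the ratio moved by at most 1.5 times. A log2 ratio can change much within that limit. Right over left at Firre on day 2 went from 0.92 to 0.36 with flanks of 5 Mb. Day 4 over day 2 to the right of Dxz4 went from 0.54 to 0.07 with flanks of 200 kb. Both were counted among the 79. Most alternatives draw on the same or overlapping rows, so this count overstates how much was tried. Scaling mattered most for the days. Without scaling the log2 of day 4 over day 2 was -0.27 at the Firre span, -0.22 at the Dxz4 row and -0.0012 left of Dxz4. Relative to the X median it was -0.88 at the Firre span, 0.32 to its left and -0.19 to its right, and -0.83, -0.61 and -0.46 at Dxz4 and to its left and right. Flanks of 200 kb turned the right over left ratio at Dxz4 to 0.44 on day 2 and 0.16 on day 4, and its row over both flanks on day 2 to -0.12. Flanks of 5 Mb, chosen after seeing the data, gave -0.92 for right over left at Dxz4 on day 4. Counting flagged rows as 0 gave 8.815 and 7.545 at Dxz4, because 1 of its 2 rows is then 0. Among X rows within 20 Mb the day 4 percentiles were 42.3 for Firre and 33.6 for Dxz4. No paired analysis was possible because there are no replicates, and no library could be left out. Without read counts, small differences between rows cannot be weighed.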

Other observations

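Summits of 4 rows like that near the start of Firre were present elsewhere on the X. On day 2 the places ranked 2 to 5 by the lowest of 4 rows over the higher neighbour were at 74987501 to 75087500 (1.23), 103162501 to 103262500 (1.22), 93112501 to 93212500 (1.21) and 109662501 to 109762500 (1.19). The first of these lies right of Dxz4. On day 4 the places ranked 2 to 4 were at 132162501 to 132262500 (1.16), 20487501 to 20587500 (1.15) and 109662501 to 109762500 (1.12). The 15 highest places of each day had 3 in common, and the Firre summit was not among the 15 of day 4. This measure was chosen after the values were seen, and no gene was assigned to these places.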
